A study of Homo sapiens with 6 samples.

Results

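Cytosolic ribosomal proteins are the proteins that, together with ribosomal RNA, build the large and the small subunit of the ribosome in the cytoplasm. A gene was counted among them when its symbol began with RPL or RPS followed by a digit, or was RPLP0, RPLP1, RPLP2 or RPSA. The S6 kinases (symbols beginning with RPS6K) and RPS19BP1 were left out. The rule used no measured value and found 84 of the 12982 genes of the table. They comprised 46 core genes of the large subunit (RPL and RPLP symbols), 31 core genes of the small subunit (RPS symbols and RPSA), 5 paralogs of core genes, and the read-through genes RPS10-NUDT3 and RPL17-C18orf32. All 77 core genes on a list of the standard human set were present, and of 10 paralogs listed, RPL7L1, RPL22L1, RPL26L1, RPL36AL and RPS27L were in the table.

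Expression had been measured by mRNA sequencing in SW480, an established human colorectal adenocarcinoma cell line, labelled with the genotype WT. There were 3 libraries of cells exposed to DMSO, the solvent, and 3 of cells exposed for 24 h to MPM-1, a fluorescent small molecule described as a mitochondrial probe and called WT4 in the labels. The dose of MPM-1 for this experiment is not given in the sources used here. Nor is it said whether the 3 libraries of a treatment came from separate cultures, so p-values measure the spread between these libraries, which may be technical. The counts summed to between 32095456 and 40269820 in DMSO and to between 31733667 and 35403841 in MPM-1, and every member had at least 235 counts in each library. All 8 epithelial markers were present, at mean levels between 3.96 and 2320 FPKM, whereas 1 of 9 markers of other cell types was in the table. The markers moved with treatment. Of the epithelial ones, 4 were higher after MPM-1 (KRT18 and KRT19 both at a log2 fold change of 0.89), 3 were lower (CDX2 at -2.20, KRT20 at -2.03 and VIL1 at -0.88) and 1 did not pass in edgeR's test, and the collagen gene COL1A1, at a mean of 0.47 FPKM in DMSO, was lower at -2.07. The part of these changes in the results that follow was not tested. In such bulk samples, fewer cells of a kind and less RNA per cell cannot be told apart.

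Each ribosome carries 1 copy of nearly every core protein, apart from the acidic stalk proteins RPLP1 and RPLP2, and the mRNAs of these proteins are among the most abundant of a proliferating cell. Most of them start with a 5′ terminal oligopyrimidine (TOP) tract, a C followed by a run of pyrimidines, through which the kinase complex mTORC1 and the RNA-binding protein LARP1 control their translation and stability. Proteins that are made in excess of the rRNA are degraded, and a few of them, above all RPL5 and RPL11, are known to bind MDM2, the ubiquitin ligase of p53.

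The start of 12 members is shown here because the tract is the sequence feature that the family is known for. They are the 6 core members with the largest rises, the 3 members that fell, and 3 genes of the paralog pairs. Each line gives the 15 bases before and the 15 bases from the RefSeq start on, 5′ to 3′ on the strand of the gene (RefSeq, build GRCh38.p14). The capitals mark the pyrimidine tract where one began within 5 bases of the start.
RPS27 at chr1:153990747-153990776 (+): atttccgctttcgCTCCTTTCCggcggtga
RPS12 at chr6:132814554-132814583 (+): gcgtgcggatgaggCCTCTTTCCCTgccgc
RPS23 at chr5:82278340-82278369 (-): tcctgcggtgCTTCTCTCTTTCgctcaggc
RPS4X at chrX:72277234-72277263 (-): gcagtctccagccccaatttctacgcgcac
RPL36A at chrX:101390996-101391025 (+): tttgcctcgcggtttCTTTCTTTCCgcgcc
RPL10 at chrX:154398362-154398391 (+): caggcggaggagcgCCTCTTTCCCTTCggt
RPS15 at chr19:1438381-1438410 (+): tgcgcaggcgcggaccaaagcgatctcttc
RPS9 at chr19:54200843-54200872 (+): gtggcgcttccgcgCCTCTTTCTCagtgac
RPL7L1 at chr6:42879601-42879630 (+): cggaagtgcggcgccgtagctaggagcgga
RPL22L1 at chr3:170870181-170870210 (-): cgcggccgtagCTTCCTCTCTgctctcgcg
RPL22 at chr1:6199581-6199610 (-): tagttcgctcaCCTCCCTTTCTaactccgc
RPS27L at chr15:63157463-63157492 (-): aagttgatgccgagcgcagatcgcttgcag
The tract was 9 to 13 bases long in the members shown with one, and no such tract lay near the annotated start of RPS4X, RPS15, RPL7L1 or RPS27L. Across the family, 68 members had a RefSeq window. In 47 of them (69.12%) the base at the start was, in any of the gene's windows, a C followed by at least 4 pyrimidines. The same was true of 7.52% of the genes tested that had a window and of 4.07% of all 35116 windows. A tract that began within 5 bases of the start was found in 55 members (80.88%) and in 29.57% of the genes tested that had a window. The motif was searched on the strand of the gene, as a C followed by at least 4 bases that were each C or T.

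After MPM-1, 53 of the 84 ribosomal protein genes were higher, 3 were lower and 28 did not pass the test, at an adjusted p under 0.05 in edgeR's quasi-likelihood test over all genes. Of all 12982 genes tested, 27.7% were higher and 28.8% were lower by that rule. The members' rises were modest. Their log2 fold changes ran from -0.59 to 0.97 with a median of 0.31, beside a median of -0.03 over all genes tested. No member reached an adjusted p under 0.01 together with a change of 1 or more on the log2 scale in edgeR. That rule called 5.58% of all genes tested as higher and 8.75% as lower, 14.3% in all. An unadjusted p under 0.05 was found in 60 members (71.4%), against 61.3% of all genes tested. DESeq2's test likewise put no member past the rule of an adjusted p under 0.01 with a change of 1 or more on the log2 scale. In 61 members all 3 MPM-1 libraries lay above all 3 DMSO libraries, in 4 all lay below, and in 19 they overlapped, whereas 31% of all genes tested lay above and 33.3% below, 64.3% in all.

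**Figure D1:**
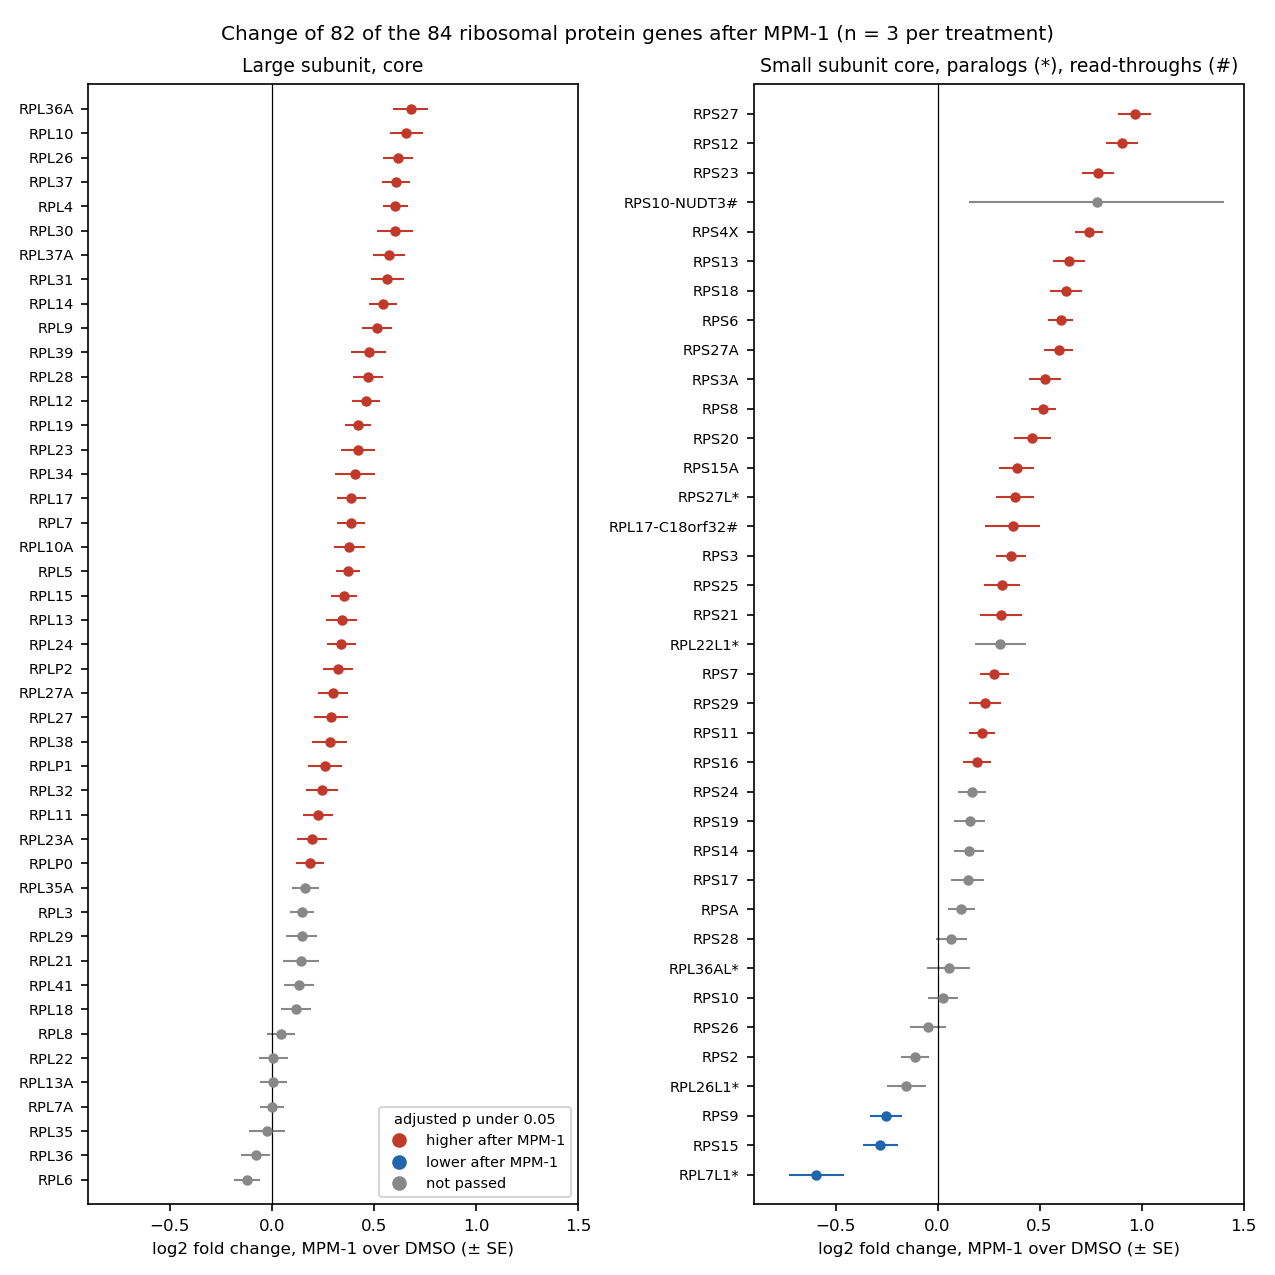
Log2 fold change (MPM-1 over DMSO, edgeR, with its standard error, 3 libraries per treatment) of 45 of the large-subunit genes on the left and of 30 of the small-subunit genes, 5 paralogs and 2 read-through genes on the right, ordered by size and coloured by call at an adjusted p under 0.05. Most points lie above 0, with RPS27 at 0.97 and RPL7L1 at -0.59 as the ends. Relative to the members' own summed counts, 22 members were higher and 17 lower.

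The size of the rise depended on how the libraries were set on a common scale. Scaling by library size alone lowered the median of all genes to -0.18, and the members then had a median of 0.16 with 37 higher and 8 lower, while 19.9% of all genes were higher and 37.5% lower. The members' median exceeded that of all genes by 0.34 with TMM scaling and by 0.33 with library size alone. On log2(FPKM + 1), where limma was used, 31 members were higher and 5 lower, with a median of 0.17 against -0.13 for all genes, of which 20.2% were higher and 35.5% lower. DMSO replicate 2 had the lowest level of the 3 DMSO libraries in 76 of the 84 members. Without that library 43 members were higher and 3 lower, with a median of 0.24, while 23.3% of all genes were higher and 23.7% lower. By name, 27 members (15 of the large and 12 of the small subunit) were higher under all 19 settings other than scaling to the members' own sum. That is 32.1% of the members, against 18.2% of the 10825 genes that were tested in all 19.

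**Figure D2:**
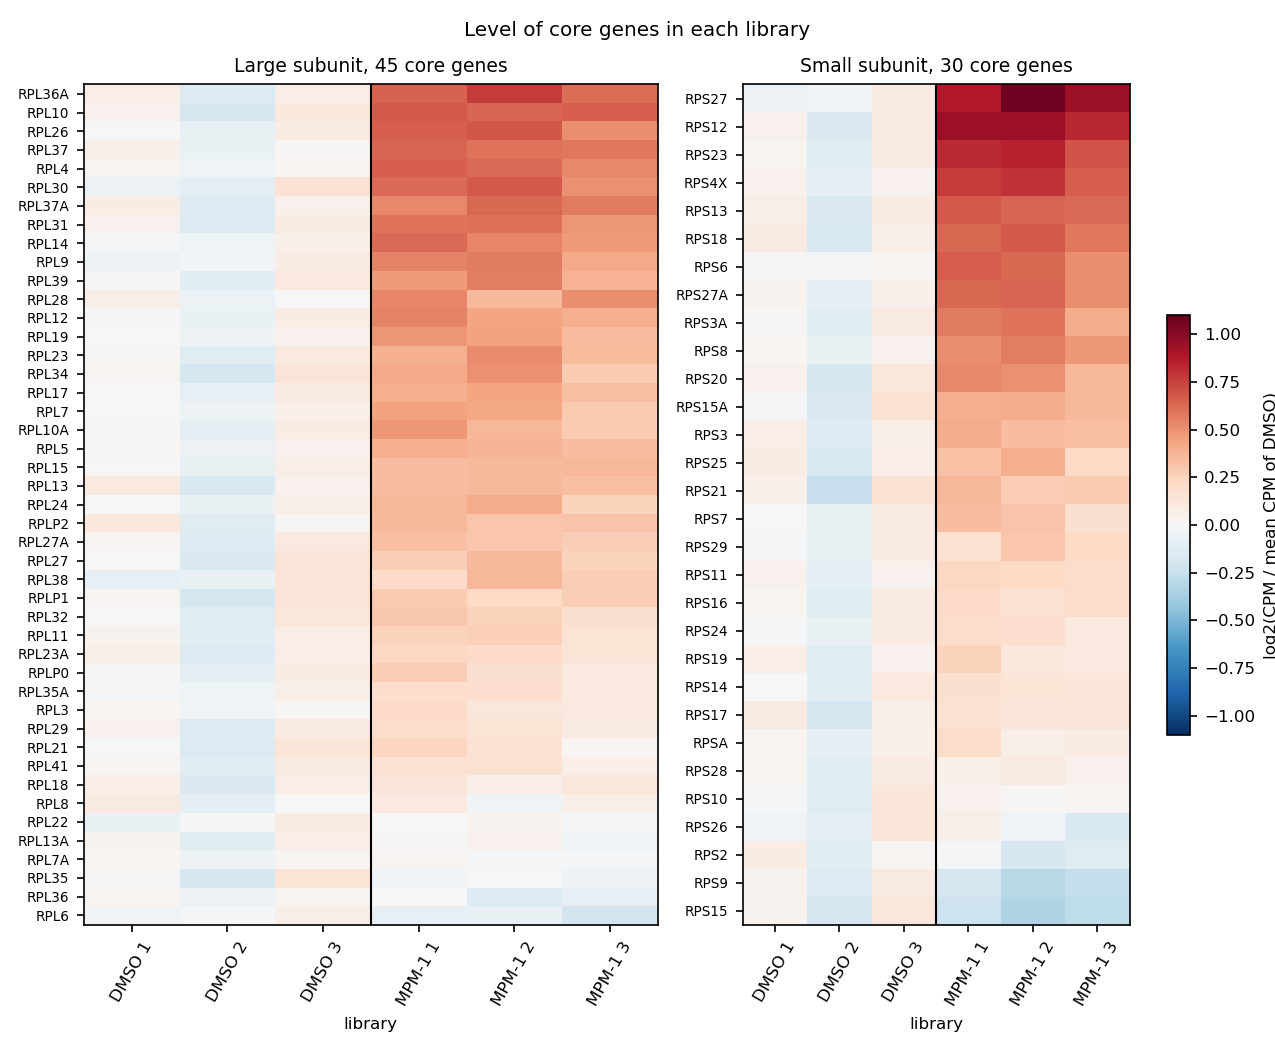
Level of 45 large-subunit and 30 small-subunit core genes in each library as log2 of its CPM over the mean CPM of the 3 DMSO libraries, large subunit left and small subunit right, in the order of the log2 fold change. The MPM-1 columns are red in most rows, deepest for RPS27 and RPS12, and the column of DMSO replicate 2 is paler or bluer than the other DMSO columns.

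The small subunit held the largest rises. Of its 31 core genes 19 were higher, 2 were lower and 10 did not pass, with a median log2 fold change of 0.28. RPS27 (ENSG00000177954, chromosome 1, 153990755 to 153992155 on GRCh38), a zinc-finger protein of the small subunit, had 254, 258 and 284 CPM in DMSO and 489, 556 and 511 CPM in MPM-1. The lowest MPM-1 library was above the highest DMSO library. The mean ± SD was 265.5 ± 16.5 CPM in DMSO and 518.9 ± 34.1 CPM in MPM-1 (n = 3 libraries per treatment). On the log2 scale it rose by 0.97 ± 0.08 (standard error, adjusted p = 1.18e-05, edgeR). With 1 library left out, this value ran from 0.94 to 1.02. RPS12, a protein of the beak of the small subunit head, stood at 1161, 1005 and 1200 CPM in DMSO and at 2154, 2148 and 1995 CPM in MPM-1. The groups were far apart, and the rise on the log2 scale was 0.90 ± 0.08 (standard error, adjusted p = 1.70e-05, edgeR).

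RPS23, which lies near the decoding centre, had 656, 587 and 689 CPM in DMSO and 1134, 1156 and 1041 CPM in MPM-1. RPS4X, encoded on the X chromosome and lacking a tract at its annotated start, had 1364, 1226 and 1360 CPM in DMSO and 2241, 2287 and 2082 CPM in MPM-1. Neither gene's libraries overlapped, and the log2 fold changes were 0.79 and 0.74. RPS13 and RPS18, proteins that take part in contacts with the large subunit, rose by log2 fold changes of 0.65 and 0.63 (adjusted p = 0.000119 and 0.000118, edgeR). RPS13 shares its strand and part of its span with PIK3C2A. RPS27A, which is made as a fusion with ubiquitin, had 1027, 936 and 1044 CPM in DMSO and 1550, 1562 and 1424 CPM in MPM-1, a log2 fold change of 0.59 without overlap.

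In the large subunit 32 of 46 core genes were higher and 14 did not pass, with a median log2 fold change of 0.33. None was lower in edgeR's test or in that of DESeq2, and none had an unadjusted p under 0.05 in that direction, whereas 3 were lower when scaled by library size alone and 1 was lower on FPKM in limma. RPL36A, a protein near the exit site for tRNA, had 207, 177 and 207 CPM in DMSO and 309, 336 and 302 CPM in MPM-1. RPL10, among the last proteins to join the large subunit, had 1771, 1511 and 1861 CPM in DMSO and 2742, 2670 and 2701 CPM in MPM-1. Both genes lie on the X chromosome, and in both the treatments were separate. Their log2 fold changes were 0.68 (standard error 0.09) and 0.66 (standard error 0.08). RPL26, which sits at the exit of the peptide tunnel, and RPL37 rose by 0.62 and 0.61 on the log2 scale (adjusted p = 9.89e-05 and 6.81e-05, edgeR).

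The large and small subunit genes were then grouped by the place of their proteins in the ribosome, and differences between these groups were not tested. All 3 proteins of the P stalk, which recruits the translational GTPases, were higher. RPLP0 had 3795, 3509 and 3963 CPM in DMSO and 4524, 4240 and 4047 CPM in MPM-1. The gap between its treatments was small beside the spread within them. Its log2 fold change of 0.19 (adjusted p = 0.041, edgeR) lost the call without DMSO replicate 1 or 2 or MPM-1 replicate 1 or 2 (largest adjusted p = 0.113), and it was -0.09 relative to the members' own sum. RPLP1 and RPLP2 had log2 fold changes of 0.26 and 0.32. RPLP1 lost the call without DMSO replicate 2 or MPM-1 replicate 1 or 3 (largest adjusted p = 0.0636, edgeR) and stood at -0.0098 relative to the members' sum. On FPKM, limma called none of the 3 stalk genes, at an unadjusted p under 0.05 either.

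RPL5 and RPL11, which travel with the 5S rRNA, were both higher by counts. RPL5 had 1487, 1406 and 1517 CPM in DMSO and 1938, 1909 and 1861 CPM in MPM-1, which is a rise of 0.37 ± 0.06 on the log2 scale (standard error, adjusted p = 0.000657, edgeR). RPL11 stood at 1194, 1064 and 1221 CPM in DMSO and at 1384, 1389 and 1289 CPM in MPM-1. The libraries of both genes were separate. The log2 fold change of RPL11 was 0.22 (adjusted p = 0.0255, edgeR), but it was -0.0078 on log2(FPKM + 1) and -0.05 relative to the members' sum. It lost the call without DMSO replicate 2 or MPM-1 replicate 1 or 2 (largest adjusted p = 0.0815, edgeR).

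Of 9 proteins around the tunnel exit, 7 were higher, with a median of 0.39, and the exceptions were RPL22 and RPL35 at 0.0069 and -0.03. With library size alone 5 were higher (median 0.24), on FPKM 4 (median 0.21), and relative to the members' sum 2 were higher and 2 lower (median 0.11). Of all genes tested, 19.9% were higher and 37.5% lower with library size alone, and 20.2% and 35.5% on FPKM. Relative to the members' sum, 13.5% of all genes were higher and 43.9% lower. Of 6 proteins of the beak and its surroundings (RPS3, RPS10, RPS12, RPS20, RPS27A and RPS29), 5 were higher, with a median of 0.41, and RPS10 stood at 0.03. Relative to the members' sum 3 were higher and RPS10 was lower, at -0.25 (adjusted p = 0.0042, edgeR), with a median of 0.14. Of 5 proteins at the platform where mRNA leaves the subunit, among them RPSA, edgeR and DESeq2 called 0, and 0 had an unadjusted p under 0.05 in edgeR against 1 in DESeq2. Their median log2 fold change was 0.07 with TMM scaling and -0.08 with library size alone, and with an offset for GC content and length 2 of the 5 were higher. Relative to the members' sum, 0 were higher and 3 lower, with a median of -0.21. RPSA was among the lower ones there, at -0.16 (adjusted p = 0.0198, edgeR). RPSA, also known as the laminin receptor, had 3457, 3164 and 3517 CPM in DMSO and 3879, 3524 and 3579 CPM in MPM-1, where the lowest MPM-1 library barely exceeded the highest DMSO library.

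RPL7L1, RPS15 and RPS9 were lower. RPL7L1, a paralog of RPL7 that acts in the assembly of the large subunit, had 215, 255 and 237 CPM in DMSO and 124, 187 and 158 CPM in MPM-1. Its treatments were separate, and the MPM-1 libraries spread more widely than those of DMSO. On the log2 scale it fell by 0.59 ± 0.14 (standard error, adjusted p = 0.00459, edgeR), and it stayed called with any 1 library left out. RPS15, a protein of the small subunit head, stood at 1178, 1006 and 1248 CPM in DMSO and at 979, 907 and 941 CPM in MPM-1. RPS9, near the mRNA entry channel, had 1299, 1137 and 1351 CPM in DMSO and 1108, 1021 and 1053 CPM in MPM-1. In both, DMSO replicate 2 was the library nearest to MPM-1, and the treatments did not overlap.

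The log2 fold changes of RPS15 and RPS9 were -0.28 and -0.25 (adjusted p = 0.019 and 0.0211, edgeR). RPS15 lost the call without DMSO replicate 3 or MPM-1 replicate 2 or 3, with adjusted p up to 0.0859. RPS9 lost it without any of DMSO replicates 1 and 3 and MPM-1 replicates 2 and 3, with adjusted p up to 0.1. With the offset for GC content and length neither passed, at -0.15 (adjusted p = 0.11) and -0.12 (adjusted p = 0.175, edgeR). Both coding sequences are rich in GC, at 63% and 60.5%.

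Per length of transcript, RPS2, RPS18, RPLP0 and RPL12 were among the highest levels. RPS2, a protein at the mRNA entry site, averaged 7276 FPKM over the 6 libraries, and the median over the 77 core genes was 1400 FPKM. These genes did not share a direction. RPS18 and RPL12 rose by 0.63 and 0.46 on the log2 scale and RPLP0 by 0.19. RPS2 had 7981, 6945 and 7717 CPM in DMSO and 7441, 6654 and 6868 CPM in MPM-1, with overlapping libraries and a log2 fold change of -0.11 (adjusted p = 0.198, edgeR). On log2(FPKM + 1) it was lower at -0.28 (adjusted p = 0.0225, limma), and with the GC and length offset its value turned to 0.08.

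The members together took 11.5, 10.9 and 12.2% of all counts in the DMSO libraries and 12.6, 12.9 and 12.2% in the MPM-1 libraries. The means were 11.5 ± 0.67% and 12.6 ± 0.359% (SD, n = 3 libraries each), and DMSO replicate 3 lay above MPM-1 replicate 3. The share of the 13 genes encoded by mitochondrial DNA moved the opposite way. They took 8.28 to 9.11% of the counts in DMSO and 1.95 to 2.35% in MPM-1. With those genes left out of the total, the members took 12.6, 11.9 and 13.4% in DMSO and 12.9, 13.2 and 12.5% in MPM-1, so that the means differed by 0.21 percentage points and the treatments overlapped. Of the summed FPKM, which weighs short mRNAs more, the members took 20.3, 19.4 and 21.4% in DMSO and 23.5, 23.8 and 22.7% in MPM-1, without overlap. No p-value was computed for these sums. With the mitochondrial genes left out of the TMM factors, 53 members were higher and 3 lower, as with them. Of all genes tested, 27.6% were then higher and 28.8% lower. TMM trims extreme ratios, so leaving out these 13 genes could change the factors little. The equal count therefore says little about the part of the mitochondrial share.

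**Figure D3:**
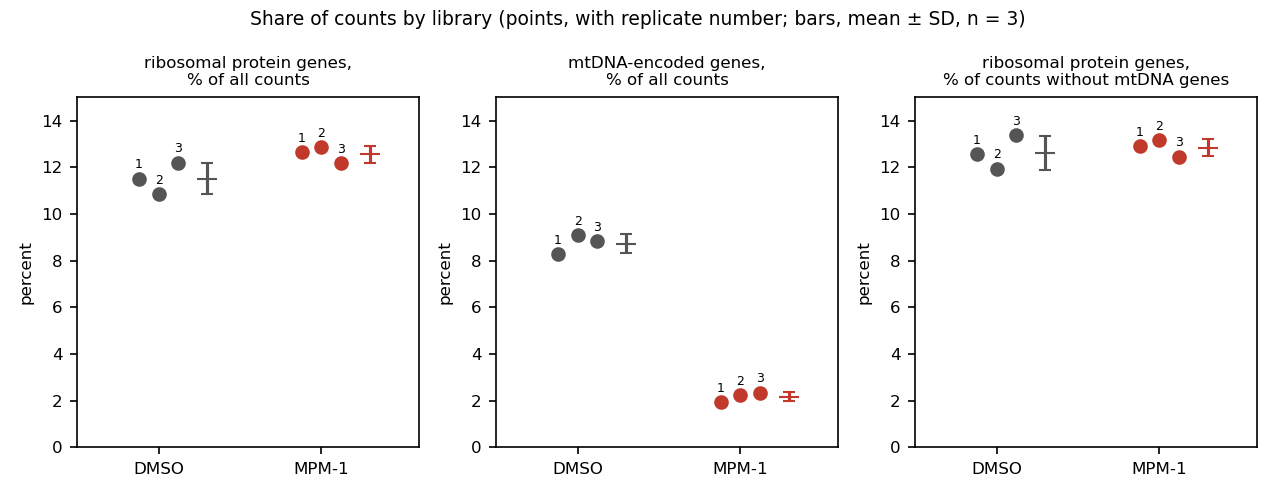
Percent of the counts of each library on the 84 ribosomal protein genes (left), on the 13 genes of mitochondrial DNA (middle), and on the ribosomal protein genes with the mitochondrial DNA genes left out of the total (right), with the mean and SD of 3 libraries. The members' share overlaps between treatments on the left and on the right, while the mitochondrial share is 8.28% or more in DMSO and 2.35% or less in MPM-1.

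Within the family, shares of the mRNA shifted. When every library was scaled to the summed counts of the 84 members, 22 members were higher (11 of each subunit), 17 were lower (8 of the large subunit, 7 of the small subunit and 2 paralogs) and 45 did not pass in edgeR's test. On that scale, 13.5% of all genes tested were higher and 43.9% lower, and the members' median is near 0 by construction, at 0.04. All 22 had also been called higher with TMM scaling. RPS2 took 7.12, 6.86 and 6.72% of the members' counts in DMSO and 5.47, 5.01 and 5.35% in MPM-1. It was the largest single share, and the treatments were well apart (log2 difference -0.39, adjusted p = 2.87e-05, edgeR).

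RPS12 moved the other way, from 1.04, 0.993 and 1.05% to 1.58, 1.62 and 1.56% of the members' counts. RPS9 took 1.16, 1.12 and 1.18% in DMSO and 0.815, 0.769 and 0.821% in MPM-1. RPS15 took 1.05, 0.994 and 1.09% in DMSO and 0.72, 0.683 and 0.733% in MPM-1. The spread between replicates of a treatment was narrow on this scale, and neither of the last 2 genes overlapped between treatments.

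Of the paralogs, RPS27L was higher, RPL7L1 was lower, and RPL22L1, RPL26L1 and RPL36AL did not pass. Each was read as a percent of the FPKM of its core counterpart, a quantity that needs no scaling between libraries. With 3 libraries against 3, the exact two-sided permutation test cannot go below p = 0.1, and 5 pairs were compared. RPL7L1 stood at 3.76, 4.69 and 3.9% of RPL7 in DMSO and at 1.56, 2.43 and 2.22% in MPM-1, a log2 difference in the ratio of -1.01. RPL26L1 stood at 3.64, 3.81 and 4.22% of RPL26 in DMSO and at 2.08, 2.23 and 2.33% in MPM-1, a difference of -0.81. In both pairs the paralog lost ground in every MPM-1 library.

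RPL36AL, a copy of the X-linked RPL36A on chromosome 14, went from 55.5, 60.6 and 39.5% of its counterpart to 28.2, 36.4 and 25.9%, a log2 difference of -0.77. RPL22L1 moved the opposite way. It stood at 49.8, 56.3 and 60.2% of RPL22 in DMSO and at 75.7, 68.7 and 66.6% in MPM-1, a log2 difference of 0.35. None of these 4 pairs overlapped between treatments, which gives p = 0.1 in the exact permutation test and 0.125 adjusted over the 5 pairs. On FPKM, RPS27L relative to RPS27 overlapped, at 2.68, 2.42 and 2.23% in DMSO and 2.57, 1.86 and 1.99% in MPM-1 (log2 difference -0.20, exact permutation p = 0.3). RPS27L is, however, 1 of 3 members whose FPKM and counts moved apart. In counts the log2 ratios were 0.38 for RPS27L and 0.97 for RPS27, and in FPKM they were 0.56 and 0.76. The 2 genes thus moved further apart in counts than in FPKM. The change of RPL22L1 itself was 0.31 (adjusted p = 0.0614, edgeR), with a range from 0.19 without DMSO replicate 1 (adjusted p = 0.168) to 0.46 without DMSO replicate 3 (adjusted p = 0.00828, edgeR), while RPL22 stood at 0.0069.

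**Figure D4:**
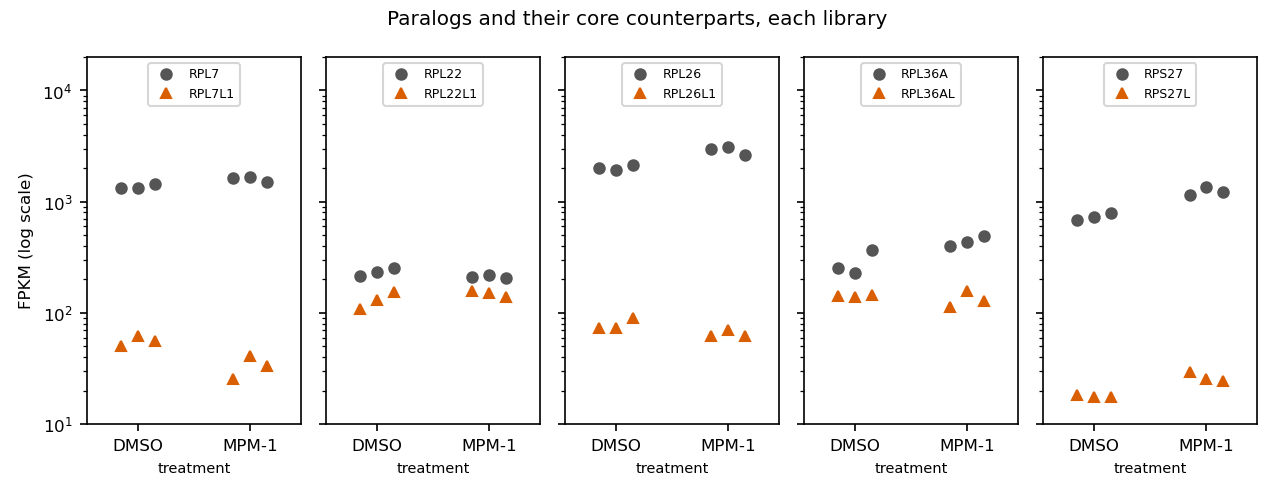
FPKM (log axis) of each paralog (triangles) and its core counterpart (circles) in the 3 DMSO and 3 MPM-1 libraries. RPL7L1 falls while RPL7 does not, RPL22L1 stands closer to RPL22 in MPM-1, and RPL26, RPL36A and RPS27 rise.

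The size of a member's change went with the base composition of its coding sequence. The GC content of the members ranged from 40.4 to 63% with a median of 50.8%, against 52.9% for all annotated genes. Across the 84 members, Spearman's rho between GC content and log2 fold change was -0.446 (Pearson's r -0.409). Genes are not independent replicates and share the same 6 libraries, so these values are a description. Over the 12127 annotated genes rho was -0.107. Of 23 members under 47% GC, 18 (78.3%) were higher, with a median log2 fold change of 0.39, against 33.1% and a median of 0.06 for all annotated genes in that range. Of 34 between 47 and 54% GC, 24 (70.6%) were higher, with a median of 0.31, against 30.5% and 0.02. Of 27 members at 54% GC or more, 11 (40.7%) were higher, with a median of 0.15, against 23.8% and -0.12.

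A loess correction of each library for GC content and coding length, chosen after seeing the data, brought the members' rho to -0.206 and the 3 medians to 0.33, 0.34 and 0.24. With it 57 members were higher and 3 lower, of which 47 and 1 were the ones called without it, while 32% of all annotated genes were higher and 26% lower. The members' median then exceeded that of all genes by 0.25. RPS27, RPS12 and RPS4X kept log2 fold changes of 0.96, 0.79 and 0.70 there. RPL41, whose coding sequence of 75 bases is the shortest of the family, moved from 0.13 to 0.57. RPL6 and RPL26L1, at -0.12 and -0.15 without the offset, became lower at -0.18 and -0.24.

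**Figure D5:**
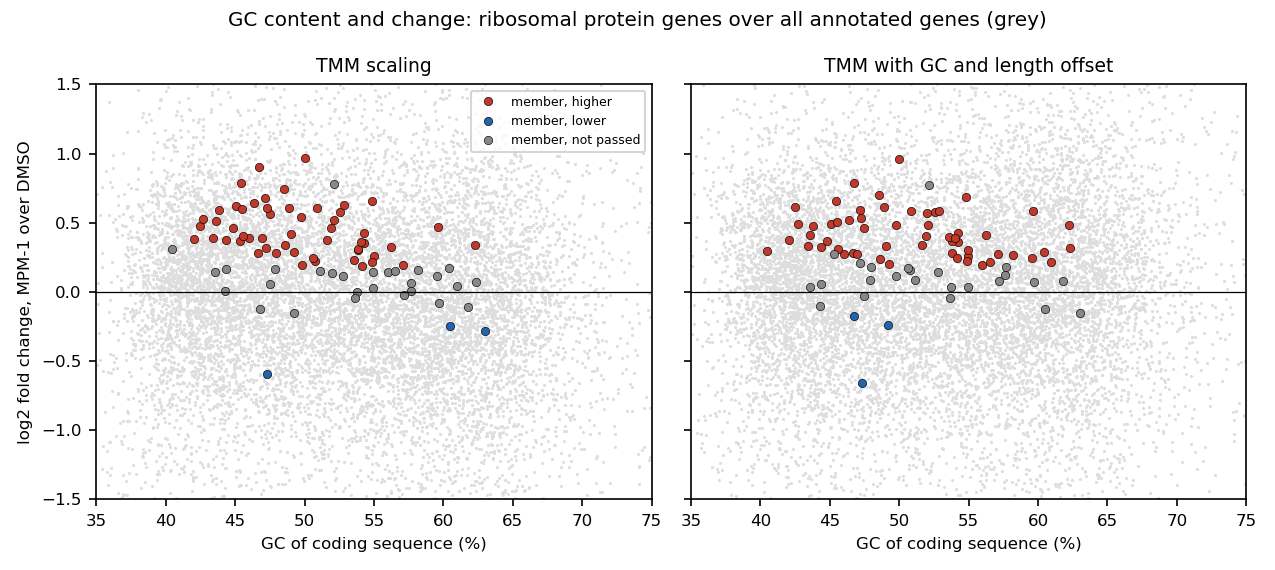
Log2 fold change (MPM-1 over DMSO) against the GC content of the coding sequence for the ribosomal protein genes, coloured by call, over all annotated genes in grey, with TMM scaling (left) and with an added offset for GC content and length (right). The members slope downwards on the left (rho -0.446) and less so on the right (rho -0.206), and values beyond 1.5 on the log2 scale are not drawn.

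Other properties of the members differed less in their medians. The 47 members with a C and at least 4 pyrimidines from the start base on had a median log2 fold change of 0.31, and 30 of them were higher. The 21 other members with a window had a median of 0.28 and 13 were higher. These 21 are not free of tracts, since a tract began within 5 bases of the start in 55 of the 68 members with a window. The 16 members without a window had a median of 0.38, above both groups, and 10 of them were higher. Small nucleolar RNAs, which guide the modification of rRNA, lay inside 29 members. Of these 22 were higher, with a median of 0.37, against 31 of 55 and a median of 0.28 for the rest. Coding length showed little relation to the change (rho -0.049 across 84 members), and nor did mean FPKM (rho -0.183).

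The counting of this family carries its own uncertainty. GENCODE 29 names 1132 pseudogenes after 76 of the members, and 39 members have at least 10 of them. How reads shared with such copies were assigned is not given in the sources used here. The 39 had a median log2 fold change of 0.39, and the other 45 had a median of 0.29. In addition, 11 members share their strand and part of their span with another coding gene. The read-through genes overlap RPS10 and NUDT3, and RPL17 and C18orf32, and which of these gave their reads is not known. RPS10-NUDT3 had between 5.44 and 61 CPM without order between treatments, and RPL17-C18orf32, called higher at a log2 fold change of 0.37 (adjusted p = 0.0409, edgeR), overlapped between treatments.

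In 3 members, chosen after their values were seen, the deposited FPKM and the counts moved apart by over 0.2 on the log2 scale beyond the median gene. RPL14, a protein of the large subunit, had 648, 633 and 677 CPM in DMSO and 1006, 946 and 901 CPM in MPM-1. Its mean FPKM, however, was 609 in DMSO and 567 in MPM-1. Its log2 ratio was thus 0.54 in counts and -0.10 in FPKM. RPL23 and RPS27L went the opposite way, with log2 ratios of 0.42 and 0.38 in counts and 0.54 and 0.56 in FPKM. In all, 16 members had a count difference above 0 and an FPKM difference below 0. Over all genes the FPKM log2 ratio minus that of the TMM-scaled counts had a median of -0.15, a shift that can turn the sign of a member near 0.

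Genes that act on the same mRNAs and proteins were followed as lists. Of 25 other mRNAs known to carry a TOP tract, mostly for translation factors, 24 were in the table. Among them 14 (58.3%) were higher, 3 were lower and 7 did not pass, beside 27.7% higher and 28.8% lower among all genes tested. Library size alone gave 11 higher and 4 lower, beside 19.9% and 37.5% of all genes. Limma on log2(FPKM + 1) gave 8 higher and 3 lower, beside 20.2% and 35.5%. Relative to the members' sum, 5 were higher and 6 lower, beside 13.5% and 43.9%. The list's median log2 fold change of 0.27 became -0.0070 on that scale, where the median of all genes was -0.30. TPT1, the tumour protein known as TCTP, had 4600, 3943 and 4282 CPM in DMSO and 10050, 10120 and 9581 CPM in MPM-1. The treatments were far apart, and the log2 fold change was 1.21 (standard error 0.07). EEF1B2, a subunit of the exchange factor for the elongation factor EEF1A1, rose by 1.06 (adjusted p = 4.75e-06, edgeR). The largest falls of the list were in HNRNPA1, a splicing regulator, and EIF3K, a subunit of initiation factor eIF3, both at -0.47.

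Of 10 dedicated assembly and chaperone factors of ribosomal proteins, 2 were higher, 3 were lower and 5 did not pass, with a median of -0.17, beside 27.7% higher and 28.8% lower among all genes tested. With library size alone 1 was higher and 6 lower, and relative to the members' sum 7 were lower and no other passed in edgeR. Of all genes tested, 19.9% were higher and 37.5% lower with library size alone. Relative to the members' sum, 13.5% of them were higher and 43.9% lower. NMD3, which escorts the large subunit out of the nucleus, rose by 0.45, and EIF6, which keeps the large subunit from joining too early, rose by 0.26 but stood at -0.01 relative to the members' sum. EIF6 lost its call without DMSO replicate 2 or 3 or MPM-1 replicate 3 (largest adjusted p = 0.0885, edgeR). HEATR3, the importer of RPL5, and LTV1, an assembly factor of the small subunit head, fell by 0.77 and 0.65 on the log2 scale. HEATR3 lost its call without DMSO replicate 2 (adjusted p = 0.0634, edgeR).

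Of 15 genes of mTORC1 and LARP1 signalling, 4 were higher, 5 were lower and 6 did not pass, with a median of -0.09. These shares are close to the 27.7% and 28.8% of all genes tested. Relative to the members' sum, 2 were higher and 8 lower, where 13.5% of all genes were higher and 43.9% lower. On log2(FPKM + 1), limma called 2 of 14 tested higher and 3 lower, beside 20.2% and 35.5% of all genes. EIF4EBP1, the repressor of cap-dependent initiation, had 131, 115 and 126 CPM in DMSO and 226, 239 and 227 CPM in MPM-1, a log2 fold change of 0.89. TSC1, an inhibitor of the pathway, rose by 0.61. Its FPKM rose less, with a log2 ratio of 0.37. It ran from 2.93 to 3.93 FPKM in DMSO and from 3.85 to 4.59 FPKM in MPM-1, an overlap. EEF2K, the kinase that restrains elongation, fell by 1.42 on the log2 scale (adjusted p = 2.87e-05, edgeR), and RPTOR, the mTORC1 subunit that binds substrates, fell by 0.66. The FPKM of RPTOR fell less, with a log2 ratio of -0.40, and ran from 2.59 to 3.51 in DMSO and from 1.71 to 3.20 in MPM-1, so that the treatments overlapped.

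Of 16 factors that sense or clear stalled ribosomes, 7 were higher, 2 were lower and 7 did not pass. By the same rule 27.7% of all genes tested were higher and 28.8% lower. The list's median of 0.20 became -0.08 relative to the members' sum, where that of all genes was -0.30. Scaling by library size alone gave 7 higher and 5 lower (median 0.05), and limma on log2(FPKM + 1) gave 6 higher and 3 lower (median 0.03). Of all genes, 19.9% were higher and 37.5% lower in the first setting, and 20.2% and 35.5% in the second. ZNF598, the ligase that ubiquitinates small subunit proteins of collided ribosomes, had 115, 81.2 and 78.5 CPM in DMSO and 250, 219 and 228 CPM in MPM-1. The treatments were far apart, with a rise of 1.34 ± 0.14 on the log2 scale (standard error, adjusted p = 4.30e-05, edgeR). EDF1, which also recognises collided ribosomes, rose by 0.94. The falls were in G3BP1 (-0.81), a stress granule protein, and GCN1 (-0.65), a sensor of stalled ribosomes.

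The mitochondrial ribosome is built from other proteins. Of its 78 nuclear-encoded proteins in the table, 6 were higher, 38 were lower and 34 did not pass, with a median log2 fold change of -0.23, against 0.31 for the cytosolic family. Among all genes tested, 27.7% were higher and 28.8% lower. The difference between the families was not tested. None of 11 listed snoRNA host RNAs was in the table, whose annotated rows were nearly all protein-coding genes, so these were not analysed here.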

How the data were processed

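RNA sequencing was carried out by the authors on 3 DMSO and 3 MPM-1 samples of SW480 cells, from libraries made with an mRNA kit. The authors deposited the whole-number counts of each gene in each library, without normalization, and the FPKM of each gene, scaled by them for transcript length and library size. The authors' own comparison (log2 fold changes with FDR values) was in the table too and was not used. The processing notes of the submitters name HISAT2, DESeq2 and the build mm10, a mouse build, although the identifiers are human Ensembl ones. The role of each, the counting and the annotation are not given in the sources used here. Groups came from the sample titles.

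The counts were tested with edgeR 4.0.16 in R 4.3.3 (TMM, quasi-likelihood, Benjamini-Hochberg over 12982 genes, no covariates). CPM values use TMM-scaled library sizes, with factors of 1.03 to 1.07 in DMSO and 0.93 to 0.969 in MPM-1. The floor of detection was set at 3 counts (0.0695 to 0.0985 CPM by library), which covers counting error only. Calls were made at an adjusted p under 0.05, and again at an adjusted p under 0.01 with a change of 1 or more on the log2 scale. DESeq2 1.42.0, limma 3.58.1 on log2 of FPKM (pseudocount 1, 0.1 or 0.01, for genes averaging 1 FPKM or more), a filter at a mean of 50 counts, other scalings, the replicate number as a block and each library left out were alternatives. Fold changes on that FPKM scale are understated where levels are low. TMM without the members was added after seeing the data, as was an offset for GC content and coding length (loess, span 0.3) over the 12127 genes found in GENCODE 29. The remaining 855 carry a NewGene identifier. Scripts were tested on simulated counts.

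Named genes were the paralogs with their counterparts, the 10 largest rises and falls among called members, the 5 members of highest mean FPKM, RPLP0, RPLP1, RPLP2, RPSA, RPS27A, RPL5 and RPL11, and the 2 largest rises and falls of each other list. Some of them are not reported here. The members, the lists and these rules were chosen with earlier results of these data known. A chi-square per gene of 15.4 to 33.2 between libraries of a treatment showed that none was deposited as a duplicate. Sequences came from RefSeq (GRCh38.p14), in which 68 members had a window of 250 bases before and 50 bases after the start, and gene positions from GENCODE 29 (GRCh38).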

Additional observations from a re-analysis of the deposited data

How the results depend on the processing

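Of the members, 53 were higher and 3 lower with a median log2 fold change of 0.31. Library size alone gave 37 higher, 8 lower and a median of 0.16. Scaling to the members' sum gave 22, 17 and 0.0366. Limma on FPKM gave 31 higher with a pseudocount of 1 (with or without the filter on low values), 29 with 0.1 and 28 with 0.01, with 5 lower in each and medians of 0.17. Leaving out 1 library gave 43 to 53 higher, 1 to 3 lower, medians of 0.24 to 0.36, and 0 or 1 gene past the stricter rule. The lower count was 1 without DMSO replicate 3, MPM-1 replicate 2 or MPM-1 replicate 3, and the 1 gene, RPS27, appeared without DMSO replicate 3 or MPM-1 replicate 1. Of all genes, 23.3 to 27.8% were higher and 23.7 to 27.5% lower with 1 library left out. The rise of 1.04 percentage points in the members' share of counts became 0.21 without the mitochondrial DNA genes and 2.97 as a share of FPKM. The cause of these shifts was not tested.

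Some named genes changed sign. With library size alone, RPL22 stood at -0.144, RPL36AL at -0.0926 and RPSA at -0.0355. Relative to the members' sum, RPL22 stood at -0.27, RPL36AL at -0.221, RPSA at -0.16, RPLP0 at -0.0904, RPL11 at -0.0507, EIF6 at -0.0124 and RPLP1 at -0.0098. On FPKM with a pseudocount of 1, with or without the filter, RPL22 stood at -0.144, RPL36AL at -0.108, RPSA at -0.0888 and RPL11 at -0.0078, and pseudocounts of 0.1 and 0.01 gave -0.145, -0.109, -0.0889 and -0.0078 in the same order. With the GC and length offset RPL22 stood at -0.100, RPL36AL at -0.0311 and RPS2 at 0.076. With 1 library left out RPL22 ran from -0.0291 to 0.0556, below 0 without DMSO replicate 1 or 2, and RPL36AL from -0.0452 to 0.162, below 0 without MPM-1 replicate 2.

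With the replicate number as a block, 50 members were higher and 3 lower. The deviations of same-numbered libraries correlated at 0.048, 0.107 and -0.084. Whether such libraries share more than a number is not given in the labels, and these values cannot settle it. The standard errors of the members had a median of 0.07 on the log2 scale and reached 0.62 for RPS10-NUDT3, which had as few as 235 counts in a library. With 3 libraries per treatment the exact tests of ratios cannot go below 0.1.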
